A study of Mus musculus with 20 samples.

Results

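The 10 genes described here are 2 small multi-copy families of the mouse, Usp17l (Usp17la, Usp17lb, Usp17lc, Usp17ld and Usp17le) and Tdpoz (Tdpoz1 to Tdpoz5). They were chosen by gene symbol and make up 10 of the 24411 genes listed. RNA was sequenced from 16 pools of 10 embryos, all fertilised in vitro and cultured. In the knockdown experiment, embryos were electroporated at the 1-cell stage with a control siRNA (siControl) or one against Pcgf5 (siPcgf5), and 2 pools of each were collected as late 2-cell embryos, 36 hours after insemination, and 2 of each as morulae, at 72 hours. The other experiment used embryos at the 4-cell stage, at 48 hours, that were wild type (WT, 2 pools) or carried a deletion of an MT2C_Mm repeat at Pcgf5 on 1 allele (Hetero KO, 3 pools) or on both (Homo KO, 3 pools). MT2C_Mm repeats are long terminal repeats of the ERVL class of endogenous retroviruses, and Pcgf5 encodes a subunit of a variant Polycomb repressive complex 1. All groups carry the same batch label. The strain, the number of mutant lines behind the pools and whether replicate pools came from separate cultures are not given in the sources used here, so the p-values below measure only the spread between these libraries.

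Usp17l genes encode deubiquitinases, enzymes that take ubiquitin off proteins, and their first members were found as cytokine-induced genes of blood cells. Tdpoz genes encode proteins with a TRAF-type and a POZ (BTB) domain, the domain pair with which Spop brings substrates to the ubiquitin ligase built on Cul3. Both families are known as part of the burst of transcription with which the mouse embryo switches on its own genome at the 2-cell stage, together with the Zscan4 genes and MERVL repeats.

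The Usp17l genes lie on chromosome 7 between 103250086 and 104862667 (1.61 Mb), and the Tdpoz genes on chromosome 3 between 93651542 and 93961314 (0.310 Mb), in the RefSeq annotation of GRCm38.p6, the assembly of mm10. Reads may be shared among such near-identical copies, and a count for 1 copy is then an estimate of how the reads were divided. The printed start regions show how alike the copies are, and each runs from 120 bases before the annotated start to 30 bases from the start onward, on the strand of the gene. They were taken from RefSeq (GRCm38.p6), which held a promoter for 7 of the 10 members. Tdpoz2, Tdpoz3 and Usp17le had none. The 4 Usp17l regions were chr7:104842554-104842703 (minus strand) for Usp17lb, chr7:103416576-103416725 (plus) for Usp17lc, chr7:103252476-103252625 (minus) for Usp17ld and chr7:104856896-104857045 (plus) for Usp17la. Capitals mark the letters TATAAA, the core of a TATA box.
Usp17lb: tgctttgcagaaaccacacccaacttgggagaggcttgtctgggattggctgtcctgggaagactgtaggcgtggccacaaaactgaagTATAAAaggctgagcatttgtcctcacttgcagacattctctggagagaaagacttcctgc
Usp17lc: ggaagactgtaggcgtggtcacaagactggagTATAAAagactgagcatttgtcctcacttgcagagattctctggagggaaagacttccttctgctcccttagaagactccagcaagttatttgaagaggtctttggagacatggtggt
Usp17ld: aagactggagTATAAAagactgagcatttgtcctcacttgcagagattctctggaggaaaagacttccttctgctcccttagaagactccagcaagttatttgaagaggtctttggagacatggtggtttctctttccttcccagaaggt
Usp17la: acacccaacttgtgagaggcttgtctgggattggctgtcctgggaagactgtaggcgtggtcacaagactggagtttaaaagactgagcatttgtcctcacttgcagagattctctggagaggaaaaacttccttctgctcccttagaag

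With the annotated start base counted as 0, TATAAA began at -31 in Usp17lb, at -88 in Usp17lc and at -110 in Usp17ld, in each case on the strand of the gene. Usp17la held no TATAAA in its promoter of 300 bases (250 before the start and 50 from it). All 4 promoters held the letters CACACCC, which began 75 bases before TATAAA in each of the 3 copies that hold both. The different distances from the start are thus a difference in where the transcripts are annotated to begin. Of 32851 RefSeq promoters of the same length, 13.6% held TATAAA and 7.95% held CACACCC on either strand. On the strand of the gene alone the shares were 8.32% and 3.85%. In pairwise alignments, which covered 215 to 278 of the 300 bases, the 4 promoters were identical at 88.2% to 96.8% of the aligned bases.

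The printed Tdpoz start regions were of 2 kinds, which need not stand for 2 kinds of gene. Tdpoz8, a further copy listed under the older symbol Gm4858, has an annotated start of either kind. Its upstream start region shared 87.6% of the aligned bases with Tdpoz1, and its downstream start region 96.9% with Tdpoz4. The regions shown are chr3:93676254-93676403 (minus strand) for Tdpoz1, chr3:93796278-93796427 (plus) for Tdpoz4 and chr3:93961285-93961434 (minus) for Tdpoz5. Capitals mark TATATAA in Tdpoz1, and in the other two TTTTCAG, a run of the kind seen at the end of introns.
Tdpoz1: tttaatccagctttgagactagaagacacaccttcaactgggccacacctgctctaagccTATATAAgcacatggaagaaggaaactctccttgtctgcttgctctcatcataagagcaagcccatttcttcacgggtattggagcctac
Tdpoz4: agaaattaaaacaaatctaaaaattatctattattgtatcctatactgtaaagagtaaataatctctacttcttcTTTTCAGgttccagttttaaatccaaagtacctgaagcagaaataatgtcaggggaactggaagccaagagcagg
Tdpoz5: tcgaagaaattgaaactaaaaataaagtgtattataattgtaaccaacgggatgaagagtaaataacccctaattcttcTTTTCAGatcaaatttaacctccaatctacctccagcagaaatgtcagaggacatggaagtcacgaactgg

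TATATAA began at -60 in Tdpoz1 and was found on either strand in 3.24% of all promoters, and on the strand of the gene in 2.20%. It can overlap a TATAAA where a further A follows, which was not the case here. TTTTCAG began at -45 in Tdpoz4 and at -41 in Tdpoz5. Of all promoters, 6.51% held it on either strand and 3.38% on the strand of the gene. These motifs were picked after the sequences had been read, and a match is no more than a match of letters. Of the aligned bases, the promoters of Tdpoz4 and Tdpoz5 shared 70.3%, and that of Tdpoz1 shared 54.1% with Tdpoz4 and 57.3% with Tdpoz5. Mismatches cost nothing in these alignments, so unlike sequences also share many bases. The start regions of Tdpoz8 shared 49.3% with each other. The annotated gene models differ in the same way, and whether they are complete was not tested. Those of Tdpoz2, Tdpoz3, Tdpoz4 and Tdpoz5 are single blocks whose genomic span equals the transcript length (1145, 1098, 1113 and 1023 bases), whereas Tdpoz1 spans 6951 bases for 2302 bases of transcript.

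The counts themselves show where reads were divided. An expected count that is not whole means that some reads were assigned in part to other transcripts. Counts were whole in all 16 libraries for Tdpoz2 and in all 13 libraries above 0 for Tdpoz3. They were whole in 0 libraries for Tdpoz1, Tdpoz4, Usp17lc and Usp17ld, in 1 of 15 for Usp17la, 2 of 16 for Usp17lb, 2 of 12 for Usp17le and 7 of 16 for Tdpoz5. Tdpoz5 had the same expected count in 16 of 16 libraries as Tdpoz7, a further copy listed under the older symbol Gm10697, whose promoter shares 299 of 300 bases with that of Tdpoz5. Values for Tdpoz5 therefore stand for an equal share of a pair of genes. Further close copies outside the members are Tdpoz9 (older symbol Gm9125), whose promoter shares 272 of 272 aligned bases with Tdpoz1, and Tdpoz8. The downstream start region of Tdpoz8 shares 284 of 293 aligned bases with Tdpoz4. How many reads of Tdpoz1 and Tdpoz4 were divided with these copies was not tested. The sum over a family does not depend on the division among its 5 members. It does depend on reads divided with copies outside it, such as Tdpoz7, Tdpoz8 and Tdpoz9.

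Depth ran from 14310634 to 17871206 summed expected counts per library at the 4-cell stage and from 22435872 to 55620137 in the knockdown experiment. Pcgf5 stood at 316 and 811 CPM (counts relative to library size, with library sizes scaled by TMM) in siControl and at 53.9 and 89.4 CPM in siPcgf5 late 2-cell embryos. In morulae it stood at 246 and 166 CPM against 39.5 and 32.4 CPM, so that both siPcgf5 groups lay below their controls. The log2 fold changes of the target, -2.96 (SE 0.443) and -2.53 (SE 0.436), were not called by edgeR (adjusted p 0.0789 and 0.242). At the 4-cell stage Pcgf5 was at 294 to 328 CPM in WT, 252 to 336 CPM in Hetero KO and 162 to 211 CPM in Homo KO, where it was lower than WT in every library but again not called (edgeR adjusted p 0.236). The labelled stages matched their markers. The 5 late 2-cell markers summed to 1055 and 1415 CPM in late 2-cell embryos with siControl, to 1721 and 2059 CPM in those with siPcgf5 and to 5.87 to 38.6 CPM in morulae, and 8 morula markers to 34.3 to 37.9 CPM at the late 2-cell stage and 556 to 677 CPM in morulae. WT 4-cell replicate 2 stood apart from replicate 1 in the 2-cell genes, with 15.5 against 228 CPM in those 5 markers, and the values it moves most are also given without it.

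Levels between genes are compared in TPM, the authors' measure of a gene's share of all transcripts, which takes account of transcript length. Usp17lb dominated its family in late 2-cell embryos. It had 610 and 1017 TPM in siControl and 613 and 926 TPM in siPcgf5, and ranked between 172 and 307 among the 17260 to 17842 genes above 0 in a library. Its share of the TPM of the 5 Usp17l genes was 88.8% to 94.3% in these 4 libraries. Next came Tdpoz5 with 106 and 170 TPM in siControl, Tdpoz1 with 52.6 and 96.3 TPM, and Tdpoz4 with 18.6 and 47.7 TPM. Usp17lc (24.9 and 22.7 TPM), Usp17la (23.3 and 19.1 TPM) and Usp17ld (22.1 and 16.5 TPM) each overlapped with Tdpoz4, and Usp17la with the other two, whereas Usp17lc lay above Usp17ld in both libraries. Tdpoz2 stood just below them at 13.68 and 15.95 TPM, Usp17le at 6.08 and 3.03 TPM and Tdpoz3 at 0.46 and 2.41 TPM. Apart from that group of 4, neighbours in this order did not overlap between the 2 siControl libraries.

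In siControl morulae the order was another. Tdpoz2 led at 12.2 and 13.9 TPM, followed by Tdpoz5 (10.3 and 3.61 TPM), Tdpoz4 (5.03 and 3.20 TPM) and Tdpoz1 (3.93 and 4.84 TPM), which overlapped with each other. Usp17lb was at 1.08 and 1.39 TPM, Usp17lc at 0.47 and 0.67 TPM, Usp17ld at 0.50 and 0.57 TPM, and Tdpoz3 at 0.18 and 0.11 TPM. Usp17la had 0.03 and 0.07 TPM, and Usp17le 0.02 and 0. The share of Tdpoz2 in the TPM of its family was 4.80% to 7.14% in siControl late 2-cell embryos and 38.6% to 54.2% in siControl morulae. That of Tdpoz5 was 51.1% to 55.5% and 14.1% to 32.5%.

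**Figure D1:**
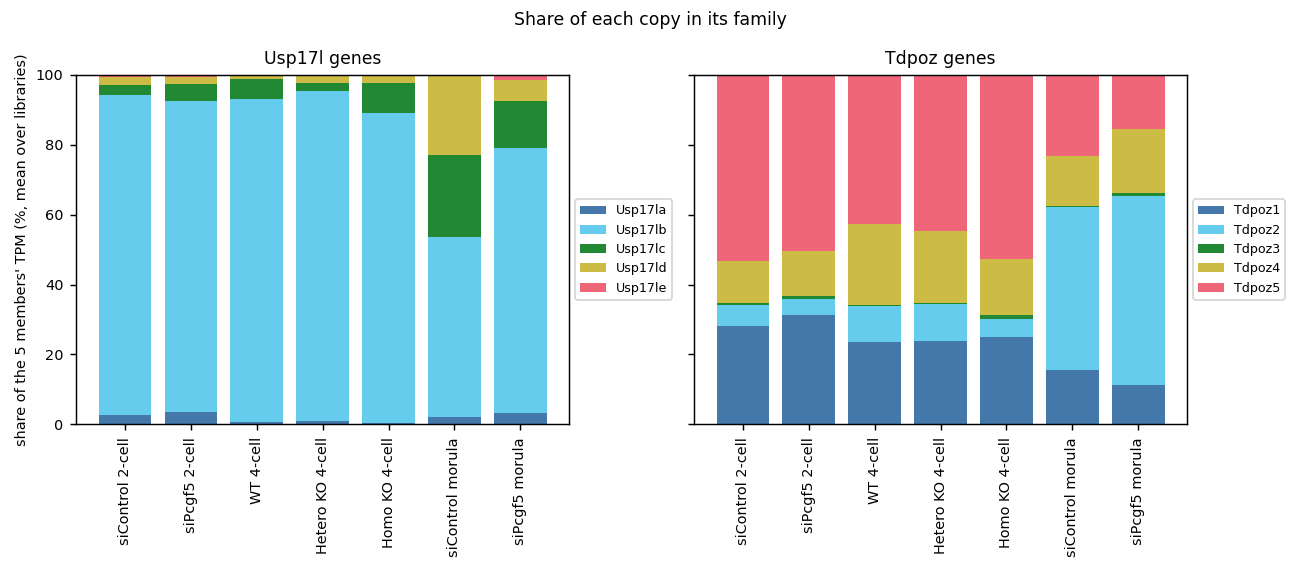
Bars show the share (%) of each copy in the TPM of the 5 members of its family, as the mean over the libraries of a group (2 or 3), with groups ordered by stage. Usp17lb takes 88.6% to 94.4% in the 5 groups at the 2-cell and 4-cell stages and 51.5% in siControl morulae, and Tdpoz2 takes 5.97% in siControl late 2-cell embryos and 46.4% in siControl morulae.

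From late 2-cell embryos to morulae, controls lost nearly all of their Usp17l level and most of their Tdpoz level, relative to library size. Tdpoz2 was the exception. The 5 Usp17l genes together went from 530 and 888 CPM to 3.66 and 4.68 CPM, which left 0.588% of the late 2-cell mean. The 5 Tdpoz genes together stood at 139 and 268 CPM and then at 42.6 and 37.5 CPM, or 19.7%. No test was made of the sums. In RNA from whole pools, fewer expressing cells and less RNA per cell cannot be told apart. Since CPM is relative to library size, more RNA of other genes cannot be told apart from these either.

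Usp17lb, the most abundant copy, had 447 and 815 CPM in late 2-cell siControl embryos and 1.68 and 2.15 CPM in morulae. The groups lay far apart, and the log2 fold change was -8.36 (SE 1.02, edgeR adjusted p 0.000248). Usp17la, the first described copy, went from 34.7 and 31.4 CPM to 0.103 and 0.204 CPM, a log2 fold change of -7.71 (SE 0.648, edgeR adjusted p 5.78e-06). Usp17lc and Usp17ld, whose reads are divided, kept a little more of their level in siControl. Usp17lc had 22.7 CPM in both late 2-cell libraries and 0.903 and 1.28 CPM in morulae (-4.37, SE 0.417). Usp17ld had 19.3 and 15.8 CPM and then 0.929 and 1.05 CPM (-4.14, SE 0.436). Both thus stood at 4.81% and 5.64% of their late 2-cell means, against 0.303% for Usp17lb and 0.466% for Usp17la. The contrast was smaller in siPcgf5, with log2 fold changes of -5.94 and -6.21 against -6.96 for Usp17lb and -7.47 for Usp17la. Usp17le, the least abundant copy, had 6.23 and 3.42 CPM and then 0.052 and 0 CPM. Its morula level rests on 2 counts in all, and the pooled level was 201-fold lower, with a 95% counting interval of 55.3 to 1667. Its fitted log2 fold change was -6.45 without morula replicate 2, and without replicate 1 the remaining morula library was at 0.

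Among Tdpoz genes, Tdpoz1 had 67.2 and 136 CPM in late 2-cell siControl embryos and 10.6 and 13.0 CPM in morulae, with a log2 fold change of -3.10 (SE 0.337, edgeR adjusted p 2.84e-05). Tdpoz5 had 53.1 and 91.7 CPM and then 10.9 and 3.81 CPM (-3.29, SE 0.614). Tdpoz4 had 10.3 and 28.7 CPM and then 5.94 and 3.73 CPM (-2.01, SE 0.618, edgeR adjusted p 0.0190). The 3 genes were lower in both morula libraries than in either late 2-cell library. Tdpoz3, close to the limit of detection, stood at 0.252 and 1.43 CPM and then at 0.206 and 0.128 CPM (-2.29, SE 1.34, edgeR adjusted p 0.171), and was not called. Tdpoz2 was the 1 member with more CPM in the morula, at 14.9 and 16.8 against 7.85 and 9.95 CPM. Its log2 fold change of 0.84 (SE 0.329, edgeR adjusted p 0.0513) did not pass, and it was -0.17 with limma on log2(TPM + 1), so that its direction depends on the scale.

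In total, edgeR called 8 of the 10 members lower and 0 higher in siControl morulae, where 28.1% of the 16980 genes tested were called lower and 24.9% higher. With DESeq2 and with limma on log2(TPM + 1) the count was 8 lower as well. Groups did not overlap in 9 members that were lower and 1 that was higher, against 42.6% and 36.3% of all genes. The median log2 fold change was -3.71 over the members and -0.34 over all genes. With DESeq2 size factors the median of all genes was -0.51, and limma called 2474 genes higher and 7431 lower where edgeR called 4220 and 4766. Tdpoz4 did not pass when replicate 2 of either stage was left out (-1.14 for the late 2-cell library, -1.71 for the morula). Without siControl morula replicate 1 the log2 fold change of Tdpoz5 was -4.24. Marker lists of other cell types were lower in morulae too, and so were 8 oocyte and maternal markers, at 15083 to 20875 CPM and then 53.5 to 62.0 CPM. The summed CPM of 5 sperm markers was 10.3 to 10.9 in siControl late 2-cell embryos and 0.748 to 0.945 in morulae, and that of 6 cumulus and granulosa markers was 1.69 to 3.78 and 0 to 0.102. The 5 blood markers summed to 248 to 255 and 16.5 to 19.3 CPM, nearly all from Hba-a2, while the globins Hbb-bs and Hbb-bt were at 0 in every library. Their part in the result was not tested.

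**Figure D2:**
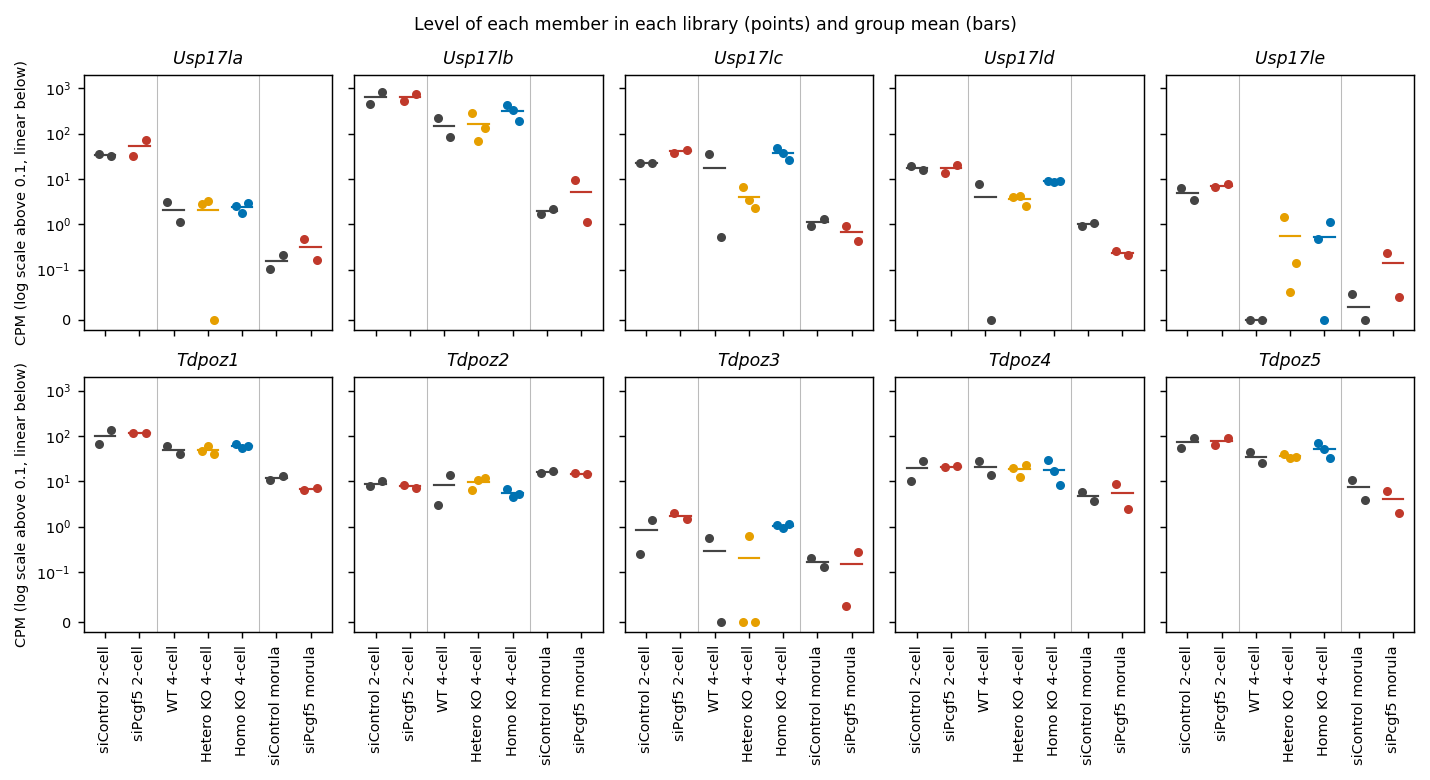
Each panel plots 1 member, with CPM on the vertical axis (log scale above 0.1, linear below) and the 7 groups ordered by stage on the horizontal axis. Points are libraries and bars are group means. The 5 Usp17l genes and Tdpoz1, Tdpoz3, Tdpoz4 and Tdpoz5 are lower in siControl morulae than in siControl late 2-cell embryos, and Tdpoz2 stays between 2.97 and 16.8 CPM in all 16 libraries.

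In siPcgf5 embryos, whose pools are other libraries than the controls, all 5 Usp17l genes and 3 of the Tdpoz genes were called lower in morulae too. Usp17lb had 515 and 744 CPM at the late 2-cell stage and 9.30 and 1.14 CPM in morulae, a log2 fold change of -6.96 (SE 0.95, edgeR adjusted p 0.000479). Its morula libraries differed 8.14-fold, and the value was -9.12 without siPcgf5 morula replicate 1 and -6.11 without replicate 2. Usp17la had 31.3 and 73.0 CPM and then 0.460 and 0.160 CPM (-7.47, SE 0.624). Usp17lc went from 36.8 and 43.6 to 0.920 and 0.434 CPM (-5.94, SE 0.452), and Usp17ld from 13.5 and 20.7 to 0.263 and 0.206 CPM (-6.21, SE 0.500). Usp17le went from 6.70 and 7.55 to 0.230 and 0.046 CPM (-5.76, SE 0.953). All 5 copies passed with edgeR. Without siPcgf5 morula replicate 1, Usp17la was at -8.34, Usp17lc at -6.54 and Usp17le at -7.20, and without replicate 2 Usp17la was at -6.84 and Usp17le at -4.96. Usp17la was at -6.72 without siPcgf5 late 2-cell replicate 2.

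Tdpoz1 went from 119 and 117 CPM to 6.44 and 7.27 CPM in siPcgf5 embryos (-4.13, SE 0.355), and Tdpoz5 from 62.9 and 89.2 to 6.21 and 2.01 CPM (-4.25, SE 0.646). Tdpoz4 stood at 20.4 and 21.4 CPM and then at 8.58 and 2.49 CPM (-1.95, SE 0.616, edgeR adjusted p 0.0217). Tdpoz2 was higher in morulae, with 8.39 and 7.08 CPM and then 15.4 and 14.3 CPM, a log2 fold change of 0.92 (SE 0.329, edgeR adjusted p 0.0361). On the TPM scale Tdpoz2 was level, at 12.8 and 11.2 TPM against 13.1 and 11.8 TPM, and its call was lost with limma (0.05), DESeq2 size factors (0.83), no filter on low counts (0.93) and without any 1 of the 4 libraries (0.81 to 1.03). Tdpoz3 had 2.01 and 1.48 CPM and then 0.033 and 0.274 CPM (-3.45, SE 1.39, edgeR adjusted p 0.0574), and was called lower by DESeq2 (-3.59) and limma (-1.76). The Tdpoz4 call was lost without siPcgf5 late 2-cell replicate 1 (-1.98) or replicate 2 (-1.89) and without siPcgf5 morula replicate 2 (-1.31), and its value was -3.08 without siPcgf5 morula replicate 1. For Tdpoz5 the value was -5.25 without siPcgf5 morula replicate 1 and -3.64 without replicate 2. In total, 8 members were called lower and 1 higher, where 28.2% of all genes were called lower and 24.5% higher. Groups did not overlap in 9 members that were lower and 1 that was higher, against 44.1% and 36.5% of all genes.

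**Figure D3:**
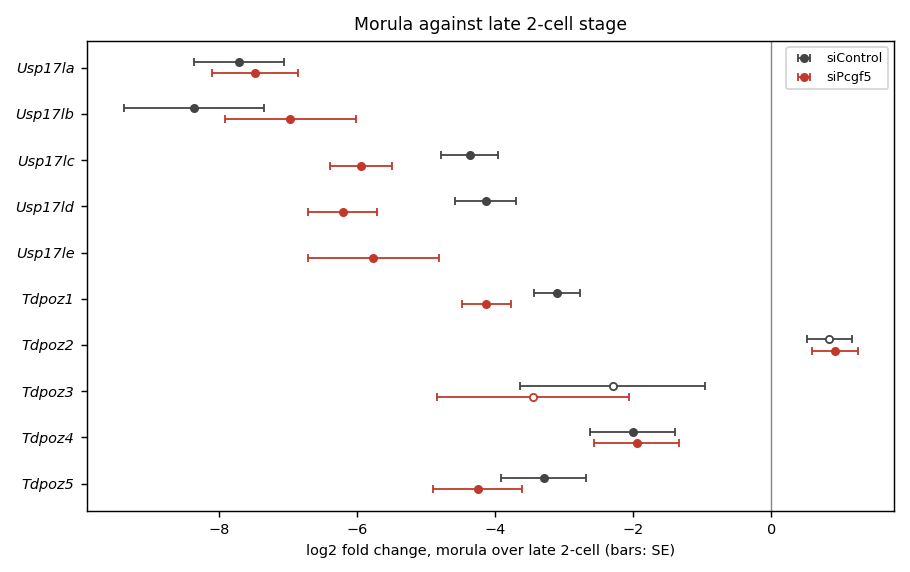
Points are log2 fold changes of morula over late 2-cell embryos for each member, with bars for the SE of the edgeR fit, in siControl (grey) and siPcgf5 (red) libraries. Filled points passed at an adjusted p of 0.05, and Usp17le is left out for siControl because its morula level rests on 2 counts. Usp17l genes lie between -8.36 and -4.14 and Tdpoz2 lies above 0 in both on this scale of counts, while limma on log2(TPM + 1) puts it at -0.17 in siControl.

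Lists of related genes give a frame for the members. Of 37 tested 2-cell activation genes, 24 were called lower and 5 higher in siControl morulae, with a median log2 fold change of -3.17, and in siPcgf5 27 were lower and 6 higher. Among them were the Zscan4 genes, which mark the late 2-cell stage, with Zscan4c at -11.52 (SE 0.668) and Zscan4d at -10.10 (SE 0.598). Of the MATH-BTB and Cul3 ligase list, to which Tdpoz proteins are related by their domains, 11 of 32 genes were called higher and 9 lower (median 0.26). Ube2m, which charges cullins with Nedd8, rose by 3.70 (SE 0.314), and Kbtbd8, a Cul3 adaptor, fell by 4.53 on the log2 scale (SE 0.234). Of 49 other ubiquitin-specific proteases tested, 8 were called higher and 24 lower (median -0.73), with Usp48 at 2.83 (SE 0.216), Usp14, a protease of the proteasome, at 2.51 (SE 0.227) and Usp50 at -6.78 (SE 0.621).

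The 4-cell stage stood between these stages for most members, but only as far as the experiments can be compared. WT 4-cell embryos were not electroporated and their libraries were less deep, so stage, experiment, treatment and depth cannot be told apart in these comparisons. The summed Usp17l level was 261 and 85.2 CPM in WT, 24.4% of the siControl late 2-cell mean, and the summed Tdpoz level was 135 and 93.3 CPM, or 56.2%. Usp17la was at 3.09 and 1.12 CPM, below both late 2-cell controls, with a log2 fold change of -3.97 (SE 1.07, edgeR adjusted p 0.0118). Usp17le was at 0 in both WT libraries, at least 52.8-fold lower than in siControl late 2-cell embryos by a floor of 3 counts over the group (edgeR adjusted p 0.00832). Tdpoz1 was at 59.1 and 39.8 CPM (-1.04, SE 0.308, edgeR adjusted p 0.0167). These 3 were called lower, where 15.2% of all genes were, and 6 members did not overlap and were lower, against 38.9%. Without WT replicate 2 the calls of Usp17la (-3.43), Tdpoz1 (-0.80) and Usp17le were lost and Tdpoz2 (-1.60) was called lower. Leaving out siControl late 2-cell replicate 2 ended the call of Tdpoz1 too (-0.49). Without WT replicate 1, Usp17lc (-5.44) and Usp17ld passed too, and Usp17la was at -4.91. The number called over all genes also changed with the library left out. DESeq2 called 4 members lower and limma 6. Over all genes limma called 2389 higher and 5229 lower and DESeq2 2773 and 3617, where edgeR called 2916 and 2526.

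Usp17lb and Tdpoz5, although not called, were lower in both WT libraries than in either control, at 216 and 83.6 CPM (-2.08, SE 0.908) and at 44.2 and 25.8 CPM (-1.05, SE 0.531). Without WT replicate 2 these values were -1.57 and -0.73. Tdpoz4, at 28.3 and 14.1 CPM, overlapped with the late 2-cell level (0.12, SE 0.641), with a value of -0.07 under DESeq2 size factors. The WT libraries disagreed most in Usp17lc, at 34.9 and 0.530 CPM, and in Usp17ld, at 7.89 and 0 CPM, with log2 fold changes of -0.36 (SE 1.07) and -2.16 (SE 1.07). Tdpoz2 went the other way, at 2.97 and 13.6 CPM (-0.10, SE 0.534), and Tdpoz3 was at 0.568 and 0 CPM (-1.55, SE 1.83).

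From WT 4-cell embryos to siControl morulae, 6 members were called lower, where 15.3% of all genes were. Usp17lb had a log2 fold change of -6.29 (SE 1.12, edgeR adjusted p 0.00178), Usp17lc of -4.01 (SE 1.22), Usp17la of -3.73 (SE 1.18), Tdpoz5 of -2.25 (SE 0.553), Tdpoz4 of -2.13 (SE 0.670) and Tdpoz1 of -2.07 (SE 0.318, edgeR adjusted p 0.000141). Tdpoz2 was higher in both morula libraries than in either WT library (0.94, SE 0.537, edgeR adjusted p 0.202) and was not called. Usp17ld (-1.99, SE 1.09) and Tdpoz3 (-0.74, SE 1.83) were not called either. Usp17le was at or below its floor in both groups. Groups did not overlap in 5 members that were lower and 1 that was higher, against 30.2% and 35.4% of all genes. The calls of Usp17lb and Tdpoz1 held with each single library left out, and those of the other 4 did not. Usp17la was lost without either morula library (-3.30 without replicate 1 and -4.26 without replicate 2) and without WT replicate 1 (-2.83), and Tdpoz4 without the same 3 libraries (-2.48, -1.81 and -1.55). Tdpoz5 was lost without morula replicate 2 (-1.65) and WT replicate 1 (-1.81), and its value was -3.17 without morula replicate 1. Usp17lc was lost without either morula library (-3.77 and -4.27) and reversed without WT replicate 1 (1.03), and was -4.98 without WT replicate 2. Usp17lb was at -5.45 without WT replicate 1. Without WT replicate 2, Usp17ld (-2.97) passed as lower and Tdpoz2 (2.43) as higher. With Usp17ld at 0 in the remaining WT library, leaving out WT replicate 1 made it higher in morulae. The number of members called thus changed with the library left out, and so did the number called over all genes. Without the filter on low counts 4 members passed, with limma 4 and with DESeq2 6. Over all genes limma called 1673 higher and 3591 lower where edgeR called 2492 and 2550.

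Of the 37 tested 2-cell activation genes, 5 were called higher and 9 lower in WT 4-cell embryos than in siControl late 2-cell embryos, and 2 higher and 13 lower in siControl morulae than in WT. Ligase genes went both ways here too, with 10 of 32 higher and 7 lower by the 4-cell stage and 9 higher and 5 lower after it, among them Cul3 itself at -2.49 (SE 0.320) after it. Of 50 other ubiquitin-specific proteases, 9 were higher and 12 lower by the 4-cell stage, with Usp10 at 2.85 (SE 0.324) and Usp2 at -3.69 (SE 0.406). After it 5 were higher and 17 lower, among them Usp29 at -4.54 (SE 0.420) and Usp16, an H2A deubiquitinase, at -1.95 (SE 0.187).

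Knockdown of Pcgf5 addresses what the members do when less Pcgf5 mRNA is present at the time they are transcribed. At the late 2-cell stage the summed levels overlapped. With siPcgf5 the Usp17l genes had 604 and 889 CPM, and with siControl 530 and 888 CPM (105% of the control mean), and the Tdpoz genes 213 and 237 CPM against 139 and 268 CPM (111%). Usp17lc separated the groups, at 36.8 and 43.6 CPM with siPcgf5 and 22.7 CPM in both controls. Its log2 fold change was 0.84 (SE 0.356), with an edgeR adjusted p of 0.886. Usp17le, at 6.70 and 7.55 against 6.23 and 3.42 CPM (0.58, SE 0.738), and Tdpoz3, at 2.01 and 1.48 against 0.252 and 1.43 CPM (1.07, SE 1.26), were also higher in both siPcgf5 libraries. The other 7 members overlapped. Usp17la had 0.68 (SE 0.444), and the abundant Usp17lb had 0.01 (SE 0.725), a value that was -0.02 under DESeq2 size factors and -0.06 with limma. Tdpoz1 had 0.23 (SE 0.310), Tdpoz4 0.11 (SE 0.591), and Tdpoz2 -0.19 (SE 0.328). Tdpoz5, at 0.09 (SE 0.558), was at -0.01 with limma, and Usp17ld was at -0.02 (SE 0.376).

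No member was called at this stage by edgeR (0 of 10, where 0.0118% of all genes were called), by DESeq2 or by limma. An unadjusted p under 0.05 was found in 1 member, against 5.58% of all genes. Among all genes, 27 were higher and 45 lower by DESeq2's test, against 10 and 8 by limma's. The 3 members that were higher without overlap compare with 14.9% of all genes. The median log2 fold change was 0.17 over the members and -0.01 over all genes. The standard errors leave room for changes of the size seen in Usp17lc in several members, so the result does not show equal levels. The 37 2-cell activation genes had a median of 0.27, with 27 above 0 and 0 called. The 5 late 2-cell markers, which also belong to that list, were each higher in both siPcgf5 libraries than in either control. Zscan4c was at 628 to 818 against 406 to 527 CPM. Zfp352 (434 to 517 against 297 to 429 CPM) and Tcstv1 (55.2 to 68.0 against 39.8 to 54.6 CPM) only just separated. The part of these markers was not tested either. The 5 blood markers summed to 328 to 354 CPM with siPcgf5 and to 248 to 255 CPM with siControl, and their part was not tested. siControl replicate 1 lay below the other 3 libraries of this stage in Usp17lb, Tdpoz1, Tdpoz3, Tdpoz4 and Tdpoz5.

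At the morula stage, siPcgf5 and siControl again gave 0 calls among the members with edgeR, DESeq2 and limma, as in 0% of all genes with edgeR. By DESeq2's test 5 of all genes were higher and 18 lower, and by limma's 0. With siPcgf5, Usp17ld had 0.263 and 0.206 CPM, and with siControl 0.929 and 1.05 CPM, a log2 fold change of -2.09 (SE 0.468, edgeR adjusted p 0.548). Tdpoz1 had 6.44 and 7.27 CPM against 10.6 and 13.0 CPM (-0.79, SE 0.320, edgeR adjusted p 1). These 2 were lower in both siPcgf5 libraries, against 17% of all genes. Both had an unadjusted p under 0.05, as had 4.22% of all genes. Usp17lb, at 9.30 and 1.14 CPM against 1.68 and 2.15 CPM, had 1.41 (SE 0.811), and the siPcgf5 libraries lay on either side of the controls. Without siPcgf5 morula replicate 1 its value was -0.75. Usp17la stood at 0.91 (SE 0.718), Usp17lc at -0.73 (SE 0.414) and Tdpoz5 at -0.87 (SE 0.585), all with overlap. Usp17le rests on 9 counts against 2, a 4.72-fold higher pooled level with a 95% counting interval of 0.978 to 44.9. Tdpoz2 (-0.11, SE 0.325), Tdpoz3 (-0.09, SE 1.34) and Tdpoz4 (0.17, SE 0.603) lay near 0. The summed Usp17l level was 11.2 and 1.99 CPM against 3.66 and 4.68 CPM, and the summed Tdpoz level 36.7 and 26.4 CPM against 42.6 and 37.5 CPM.

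Tested directly, the knockdown effect was not called different between the stages in any member (0 of 10 with edgeR, as in 0% of all genes, and 0 with DESeq2 and limma, which over all genes called 14 higher and 18 lower, and 1 higher and 0 lower). At an unadjusted p under 0.05 there were 3 (4.96% of all genes), in each of which the late 2-cell effect was the higher. Usp17ld had a difference of 2.07 (SE 0.599), Usp17lc of 1.57 (SE 0.546) and Tdpoz1 of 1.03 (SE 0.445), with edgeR adjusted p from 0.887 to 0.982. Tdpoz3 had 1.16 (SE 1.85) and Tdpoz5 0.96 (SE 0.808). Usp17lb had -1.40 (SE 1.09), Usp17le -1.61 (SE 1.38) and Tdpoz2 -0.08 (SE 0.462). Usp17la had -0.23 (SE 0.808) and Tdpoz4 -0.06 (SE 0.843), and these 2 and Usp17le were above 0 with limma. The median was 0.45 over the members and 0.05 over all genes.

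**Figure D4:**
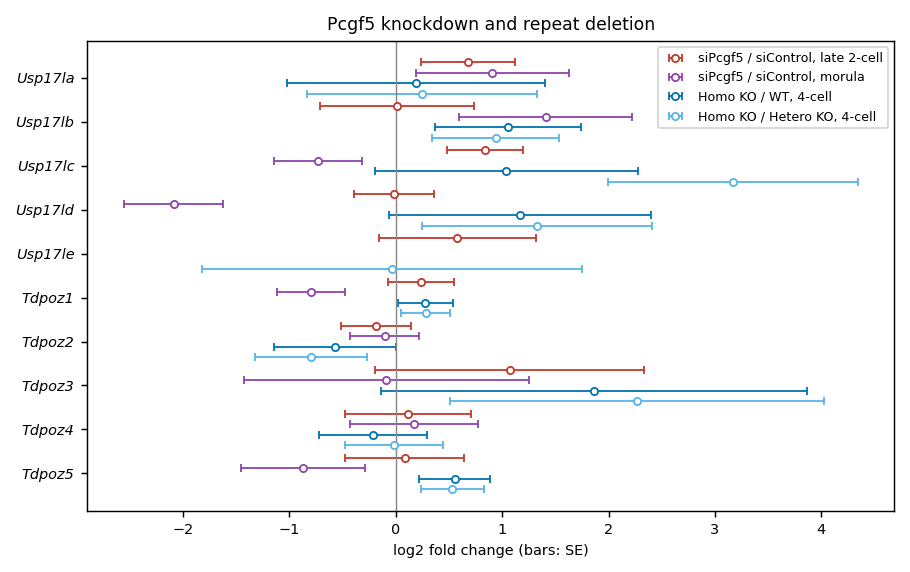
Points are log2 fold changes with SE bars from the edgeR fits for each member, in 4 comparisons, siPcgf5 over siControl at the late 2-cell stage (red) and in the morula (purple), and Homo KO over WT (dark blue) and over Hetero KO (light blue) at the 4-cell stage. All points are open because none passed an adjusted p of 0.05, and Usp17le is left out where a group rests on 2 counts or fewer.

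At the 4-cell stage the question is whether loss of the repeat at Pcgf5 changes the members. Homo KO embryos held more Usp17l mRNA on average than WT and Hetero KO embryos, within a wide spread. The 5 genes together had 482, 371 and 224 CPM in Homo KO, 303, 78.2 and 138 CPM in Hetero KO and 261 and 85.2 CPM in WT. The means were 359 ± 129 (SD, n = 3), 173 ± 116 (SD, n = 3) and 173 ± 125 (SD, n = 2), and all 3 groups overlapped. Tdpoz genes together had 173, 128 and 107 CPM in Homo KO, 113, 116 and 111 CPM in Hetero KO and 135 and 93.3 CPM in WT. In Homo KO this came to 207% of the WT mean for Usp17l and 119% for Tdpoz.

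Usp17lc differed most between the mutant groups. It had 46.9, 36.5 and 25.4 CPM in Homo KO and 6.46, 3.43 and 2.26 CPM in Hetero KO, with WT at 34.9 and 0.530 CPM. All Homo KO libraries lay above all Hetero KO libraries, with a log2 fold change of 3.17 (SE 1.18, edgeR adjusted p 0.566), while 1 WT library lay within the Homo KO range and the other below every library. Usp17ld had 8.99, 8.33 and 9.11 CPM in Homo KO, 4.00, 4.11 and 2.46 CPM in Hetero KO, and 7.89 and 0 CPM in WT. Every Homo KO library lay above every other library of this stage, with 1.33 (SE 1.08) against Hetero KO and 1.16 (SE 1.23) against WT. Usp17lb had 423, 324 and 185 CPM, 288, 67.3 and 133 CPM, and 216 and 83.6 CPM in the same order, with overlap, and 1.06 (SE 0.687) against WT. Usp17la had 2.53, 1.74 and 2.91 CPM in Homo KO, 2.80, 3.26 and 0 CPM in Hetero KO and 3.09 and 1.12 CPM in WT, and showed no separation (0.19 against WT, SE 1.21). Usp17le had 0.466, 0 and 1.14 CPM in Homo KO and 1.47, 0.056 and 0.137 CPM in Hetero KO. Against WT, where it was at 0, the Homo KO level was at least 5.85-fold higher by a floor of 3 counts over the WT group, with an edgeR adjusted p of 0.441. The Hetero KO level rests on replicate 1, with 22.28 expected counts against 1.01 and 2.03 in the other two libraries, and its edgeR adjusted p was 0.945.

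Tdpoz5 had 68.6, 51.8 and 33.4 CPM in Homo KO, 39.3, 32.7 and 35.0 CPM in Hetero KO and 44.2 and 25.8 CPM in WT (0.55 against WT, SE 0.335). Tdpoz1 was the steadiest member at this stage, between 39.8 and 66.7 CPM in the 8 libraries (0.28 against WT, SE 0.258). Tdpoz3 had 1.07, 0.933 and 1.14 CPM in Homo KO and was at 0.619 CPM or below elsewhere, with 0 in 1 WT and 2 Hetero KO libraries (1.86 against WT, SE 2.01, and 2.27 against Hetero KO, SE 1.76). Tdpoz2 lay at 4.60 to 6.92 CPM in Homo KO, 6.46 to 11.7 CPM in Hetero KO and 2.97 and 13.6 CPM in WT (-0.57 against WT, SE 0.576). Tdpoz4 lay at 8.16 to 29.8 CPM in Homo KO, 12.7 to 23.3 CPM in Hetero KO and 14.1 and 28.3 CPM in WT (-0.21 against WT, SE 0.510).

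With edgeR 0 members were called in Homo KO against WT, Hetero KO against WT or Homo KO against Hetero KO, as in 0% of all genes in each, and 0 members were called by DESeq2 or limma. Among all genes, DESeq2's test gave 237 higher and 96 lower in Homo KO against WT, 6 and 1 in Hetero KO against WT, and 89 and 22 in Homo KO against Hetero KO. The limma test gave 0 in each. At an unadjusted p under 0.05 the counts were 0, 0 and 1 (Usp17lc in Homo KO against Hetero KO). The shares over all genes were 12.4%, 4.76% and 8.22%. Groups did not overlap, with the mutant higher, in 2 members against WT in Homo KO (15.1% of all genes) and in 1 in Hetero KO (9.56%). In Homo KO these were Usp17ld and Tdpoz3, each at 0 in WT replicate 2. In Hetero KO it was Usp17le, at 0 in both WT libraries and at 1.01 and 2.03 expected counts in Hetero KO replicates 2 and 3. Homo KO lay above Hetero KO without overlap in 3 members (8.11%). They were Usp17lc and Usp17ld, whose reads are divided, and Tdpoz3, at 1.14 CPM or below in these libraries. Members whose reads are divided are not independent in such counts. These comparisons share control libraries and are not independent. In Hetero KO against WT, Usp17lc was at -2.13 (SE 1.21) and Usp17lb at 0.12 (SE 0.667). There Usp17la (-0.06), Usp17ld (-0.16) and Tdpoz4 (-0.20) turned above 0 with the replicate block, and Usp17ld also with limma. Tdpoz1 (-0.0064) did so with the block, with limma and with DESeq2 size factors. Tdpoz2 was at 0.23, Tdpoz3 at -0.41 and Tdpoz5 at 0.03. In Homo KO against Hetero KO, Usp17lb was at 0.94 (SE 0.599), Tdpoz5 at 0.53 (SE 0.296), Tdpoz1 at 0.28 (SE 0.229) and Tdpoz2 at -0.80 (SE 0.523). Usp17la was at 0.25 (SE 1.08), Tdpoz4 at -0.02 (SE 0.459), and Usp17le at -0.03 (SE 1.78), or 0.0142 with limma. WT replicate 1 decides the comparison with WT. Without it, Usp17lc (6.06, edgeR adjusted p 0.0359) and Usp17ld (edgeR adjusted p 0.0289, with WT at 0) were called higher in Homo KO, as were 26 of 13766 genes in all, with 0 lower. Without WT replicate 2 their values were 0.03 and 0.14. In that fit Usp17lb was at 0.50, Usp17la at -0.39, Tdpoz1 at -0.00625, Tdpoz2 at 0.88, Tdpoz3 at 0.85, Tdpoz4 at -0.66 and Tdpoz5 at 0.19.

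The other 2-cell genes differed between libraries of this stage as well. The mean log2 CPM of the 39 listed 2-cell activation genes was 5.19 and 3.43 in the WT pools. It was 4.80, 3.88 and 4.06 for Hetero KO, while Homo KO pools had 5.30, 5.41 and 5.50. All 5 late 2-cell markers belong to that list. They summed to 228 and 15.5 CPM in WT, 68.0 to 149 CPM in Hetero KO and 283 to 318 CPM in Homo KO. WT replicate 2, the lowest by this mean, also had the lowest Usp17lc, Usp17ld, Tdpoz1 and Tdpoz5, but the highest Tdpoz2 and not the lowest Usp17la or Usp17lb. By summed CPM, its list level of 7470 lay above the 6236 of WT replicate 1. In the Hetero KO group the 2 libraries with the lower mean had less Usp17lb, Usp17lc, Usp17le and Tdpoz5 than the first. Replicate 2 of that group had more Usp17la, Usp17ld, Tdpoz1, Tdpoz2 and Tdpoz3 than replicate 1. Within Homo KO the order was reversed, as the mean rose from replicate 1 to 3 while the sums fell. The Usp17l sum was at 482, 371 and 224 CPM there, and the Tdpoz sum at 173, 128 and 107 CPM. The 5 blood markers, again mostly Hba-a2, summed to 20.2 to 48.3 CPM in WT, 18.8 to 47.6 CPM in Hetero KO and 61.7 to 83.3 CPM in Homo KO. The part of these differences between pools in the result was not tested.

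**Figure D5:**
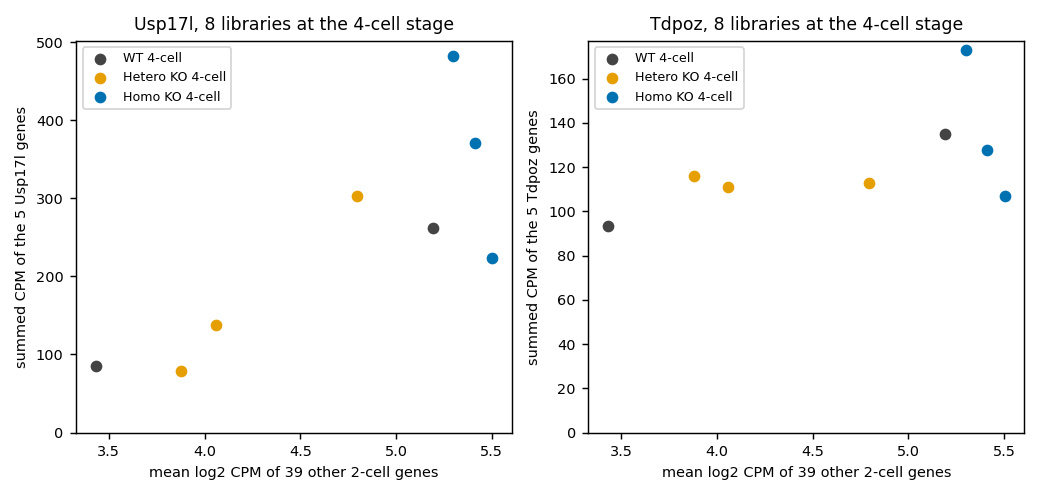
Each point is 1 of the 8 libraries at the 4-cell stage, with the mean log2 CPM of 39 other 2-cell genes on the horizontal axis and the summed CPM of the 5 Usp17l genes (left) or 5 Tdpoz genes (right) on the vertical axis. WT replicate 2 and Hetero KO replicates 2 and 3, at 3.43 to 4.06 on the horizontal axis, have 78.2 to 138 CPM of Usp17l, and the other 5 libraries have 224 to 482 CPM, while the Tdpoz sums lie between 93.3 and 173 CPM. Within Homo KO both sums fall from replicate 1 to 3 while the mean on the horizontal axis rises.

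Across all 16 libraries, which differ mostly by stage, the 36 pairs without Tdpoz2 had positive correlations, from 0.273 to 0.956. Tdpoz5 and Usp17lb, which lie on different chromosomes, had a Pearson correlation of 0.956 in log2 CPM, and Tdpoz1 and Usp17lb of 0.935. Usp17lc and Usp17ld, whose promoters are 96.8% identical where aligned and whose reads are divided, had 0.921. The weakest were Tdpoz3 with Tdpoz4 (0.273), Usp17le with Tdpoz4 (0.353) and Tdpoz3 with Usp17le (0.419). Tdpoz2 had negative values with all 9 other members, from -0.82 with Usp17lc to -0.20 with Usp17le. Since libraries of a stage share that stage, these values are descriptions. The genes most like the Usp17l mean over the same 16 libraries, out of 8290 candidates, were Gyg, the glycogen primer glycogenin (0.983), Cep135, a centriole protein (0.974), Pdzph1 (0.971), Sec16a, of endoplasmic reticulum exit sites (0.968) and the kinase Fyn (0.967). Most like the Tdpoz mean were Gabpb1, a subunit of the GA-binding transcription factor (0.954), the homeobox gene Obox3 (0.949), Atf7ip2 (0.947), Ift20, of intraflagellar transport (0.943) and Rsrc2 (0.940).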

How the data were processed

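Per the labels' protocols, each library holds RNA of 10 embryos and was made with a SMART-Seq v4 PLUS kit. Per the submitters' processing notes, STAR 2.7.10 and RSEM 1.3.3 were used with mm10. The authors deposited an expected count and a TPM for each gene and library, per the file headers, and RSEM divides reads that fit several transcripts among them, so values of near-identical copies are estimates. Expected counts were rounded and tested with edgeR 4.0.16 (quasi-likelihood, TMM, filterByExpr with a minimum count of 10, Benjamini-Hochberg at 0.05 over all genes tested) in R 4.3.3. There was 1 fit for the 8 knockdown libraries (16980 genes), 1 for the 8 libraries at the 4-cell stage (13766 genes) and 1 for all 16 (16669 genes, used between the experiments), and all 10 members passed the filter in each. The scripts were tested on simulated data. Alternatives were DESeq2 size factors, no filter, DESeq2 1.42.0, limma 3.58.1 on log2(TPM + 1), a replicate block and each library left out. By the naming rule all members could be named in every comparison, and of each list the 3 genes with the smallest p were eligible where any gene of it was called. Genes most like a family were the 5 with the highest Pearson correlation to its mean log2 CPM (prior count 2) among genes with a group mean of at least 10 CPM, predicted genes left out. The members and lists were chosen with earlier results of these data known. The 4 libraries of H2AK119ub1 were not analysed here. Counting intervals and the floor of 3 counts cover counting error only.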

Additional observations from a re-analysis of the deposited data

How the results depend on the processing

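All values here are log2 fold changes unless named as counts. The 8 calls of lower level in siControl morulae held with DESeq2, DESeq2 size factors, limma, no filter and the replicate block. With the authors' TPM the Usp17l sum was at -8.52 between the siControl stages (main value -7.41) and at -6.24 from WT to morulae. The Tdpoz sum was at -3.19, -3.48 and -2.12 in siControl, in siPcgf5 and from WT with TPM. With 3 further Tdpoz genes, listed under older symbols and added after seeing the data, it was at -3.24, -3.81 and -1.87. With limma 6 members were called between siControl late 2-cell and WT embryos, against 3. Directions reversed, none of them at a called value, for Tdpoz2 between siControl stages (limma -0.17), Usp17lb in the late 2-cell knockdown (-0.0206 with DESeq2, -0.0204 with its size factors, -0.0645 with limma) and Tdpoz5 there (limma -0.00702). With limma the differences between knockdown effects reversed for Usp17la (0.36), Usp17le (0.35) and Tdpoz4 (0.13), as did Usp17le in Homo KO against Hetero KO (0.0142). In Hetero KO against WT, Usp17ld was at 0.46 with limma, and Tdpoz1 was at 0.00845 with limma, 0.0138 with DESeq2 and 0.0134 with its size factors. Tdpoz4 between WT and siControl late 2-cell embryos was at -0.0671 with DESeq2, at -0.0665 with its size factors and at -0.12 with limma. The cause was not tested for any of these.

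Whether replicate numbers pair libraries is not known. In deviations from group means, same-numbered libraries correlated between -0.039 and 0.0068 in the knockdown and between -0.118 and 0.153 at the 4-cell stage. These values cannot decide it, since the deviations of 2 libraries in a group mirror each other. In the knockdown, pairs with the same and with different numbers therefore differ only in sign. With the replicate number as a block, the calls of Tdpoz2 in siPcgf5 (0.92, edgeR adjusted p 0.0553) and of Usp17lc from WT to morulae (-3.59, edgeR adjusted p 0.0572) were lost. Hetero KO against WT turned to 0.11 for Usp17la, 0.73 for Usp17ld, 0.076 for Tdpoz1 and 0.0121 for Tdpoz4, and WT against siControl late 2-cell embryos to -0.0775 for Tdpoz4. The block changed no other call.

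Leaving out 1 library at a time gave the ranges that follow for values that changed sign and for sums and counts that moved, and for some that kept their sign, where a lone library of a group was assumed to vary like the other groups, and where fitted values of a group left at 0 are no bounds. For siControl morulae against late 2-cell embryos the range was, for the Usp17l sum from -7.74 to -6.99 and the Tdpoz sum from -2.74 to -1.79. For siPcgf5 morulae against late 2-cell embryos the range was, for the Usp17l sum from -8.55 to -6.06 and the Tdpoz sum from -3.09 to -2.61. For knockdown at the late 2-cell stage the range was, for the Tdpoz sum from -0.25 to 0.70, Usp17la from -0.0709 to 1.17, Usp17lb from -0.32 to 0.49, Usp17ld from -0.37 to 0.27, Tdpoz1 from -0.15 to 0.81, Tdpoz4 from -0.41 to 1.02 and Tdpoz5 from -0.22 to 0.51. For knockdown in morulae the range was, for the Usp17l sum from -1.07 to 1.42, the Tdpoz sum from -0.60 to -0.13, Usp17lb from -0.75 to 2.26, Tdpoz3 from -2.25 to 0.70, Tdpoz4 from -0.96 to 0.81 and Tdpoz5 from -1.88 to 0.0788. For the difference between the knockdown effects the range was, for Usp17la from -1.02 to 0.63, Usp17lb from -2.25 to 0.76, Tdpoz2 from -0.24 to 0.0443 and Tdpoz4 from -0.70 to 1.07. For Homo KO against WT the range was, for the Usp17l sum from 0.46 to 2.07, Usp17la from -0.39 to 1.08, Tdpoz1 from -0.00625 to 0.57, Tdpoz2 from -1.30 to 0.88, Tdpoz4 from -0.76 to 0.36 and the members called from 0 to 2. For Hetero KO against WT the range was, for the Tdpoz sum from -0.25 to 0.28, Usp17la from -0.63 to 0.83, Usp17lb from -0.56 to 0.95, Usp17lc from -3.13 to 2.90, Usp17ld from -1.18 to 8.81, Tdpoz1 from -0.28 to 0.30, Tdpoz2 from -0.50 to 1.69, Tdpoz3 from -5.17 to 4.79, Tdpoz4 from -0.64 to 0.39 and Tdpoz5 from -0.33 to 0.45. For Homo KO against Hetero KO the range was, for Usp17la from -0.33 to 0.77, Usp17le from -1.22 to 2.39 and Tdpoz4 from -0.56 to 0.34. For WT against siControl late 2-cell embryos the range was, for the Usp17l sum from -3.06 to -1.44, the Tdpoz sum from -1.23 to -0.28, Usp17lc from -5.44 to 0.61, Tdpoz2 from -1.60 to 0.58, Tdpoz3 from -7.54 to 0.10, Tdpoz4 from -0.50 to 0.99 and the members called from 1 to 5. For siControl morulae against WT the range was, for the Usp17l sum from -5.97 to -4.35, the Tdpoz sum from -1.75 to -1.22, Usp17lc from -4.98 to 1.03, Usp17ld from -2.97 to 7.74, Usp17le from 0 to 3.54, Tdpoz3 from -1.72 to 5.21 and the members called from 2 to 8. The Usp17l sum ran from -0.25 to 0.49 in the late 2-cell knockdown and from -0.68 to 1.02 in Hetero KO against WT. Without a change of sign, Tdpoz3 in the late 2-cell knockdown ran from 0.33 to 2.77, Usp17la in the morula knockdown from 0.0467 to 1.54, Usp17lc there from -1.33 to -0.26, and in Homo KO against Hetero KO the Usp17l sum from 0.70 to 1.73 and Usp17lb from 0.56 to 1.62. In Homo KO against WT, Usp17lb ran from 0.50 to 1.88, Tdpoz3 from 0.85 to 7.06 and Tdpoz5 from 0.19 to 0.97. In the comparisons whose counts of members called are given here, the number called over all genes changed too. With 2 or 3 libraries a group, adjustment over all genes also left large values uncalled, such as -2.09 (SE 0.468) for Usp17ld in the morula knockdown.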
